A study of Mus musculus with 4 samples.

Results

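This account follows 50 genes of mitosis in mouse leukaemia cells treated with an inhibitor of the RNA demethylase FTO. The genes were taken by symbol from a set named for its spindle, kinetochore, condensin and anaphase-promoting complex (APC) genes. All 50 were found among the 24497 features of the deposited table, and all 50 were among the 11866 features that passed the filter on low values (a level of 1 TPM or more in 2 or more of the 4 libraries; TPM is a transcript abundance corrected for length and scaled to a fixed total). The label holds with 1 limit: the set has partners of the APC (Cdc20, Ube2c and Ube2s) but none of its core subunits, which are described separately.

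Poly(A) RNA was sequenced from the spleens of mice carrying acute myeloid leukaemia driven by the fusion oncogene MLL-AF9. In both groups, sorted CD45.2+ leukaemic bone marrow cells had been transplanted into secondary recipients irradiated with 320 rads, and an antibody with magnetic beads was used to enrich CD45.2 cells from the spleen; recipients keep host cells of their own after such a dose. The PBS group (2 libraries) had received the vehicle and the CS1 group (2 libraries) CS1, which inhibits FTO, injected into the peritoneum at 5 mg/kg on alternate days over 20 days; no strain or age of the mice was given. For CS1 replicate 2 the labels conflict, with CS2 under treatment but CS1 in title and description, and it was counted here as a CS1 library. Nothing in the labels says that the replicates came from separate mice, so the p-values reflect the spread of these libraries alone, which may be technical. TPM totals ran from 977973 to 986345, the read depth is unknown, and the median difference between replicates was 0.06 on the log2 scale in each group.

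Mitosis is run by cyclin B bound to the kinase CDK1. Chromosomes condense, kinetochores capture spindle microtubules, a checkpoint holds the APC inactive until every kinetochore is attached, and the APC then marks cyclin B and securin for destruction so that sister chromatids separate and the cell divides. Most of these genes are transcribed late in the cell cycle. Their promoters are known for the CHR element (cell cycle genes homology region), which is bound by the DREAM and MYB-MuvB complexes, and for CCAAT boxes, which are bound by NF-Y.

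Promoter sequence was available from RefSeq (GRCm38.p6) for 41 of the 50 genes, in 44 windows running from 250 bases before to 50 bases after a gene start. The motifs searched, on both strands, were the CHR as TTTGAA or TTCGAA and the CCAAT box as CCAAT. These letters are shown first because the genes were taken by symbol and not by promoter sequence. Mitosis genes are already known for these elements, so a high share among the 41 is not independent of the choice. The 6 promoters below belong to the genes with the largest log2 fold changes among those with a CHR match in their window, and each shows the 150 bases before the start, 5′ to 3′ on the gene's strand; capitals mark CCAAT (or ATTGG on the other strand) and CHR matches (TTTGAA, or TTCAAA on the other strand).
Ube2c, chr2:164769779-164769928, plus strand: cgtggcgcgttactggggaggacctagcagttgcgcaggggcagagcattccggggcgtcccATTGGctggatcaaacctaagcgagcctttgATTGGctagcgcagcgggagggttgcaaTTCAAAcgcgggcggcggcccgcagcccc
Cenpf, chr1:189688087-189688236, minus strand: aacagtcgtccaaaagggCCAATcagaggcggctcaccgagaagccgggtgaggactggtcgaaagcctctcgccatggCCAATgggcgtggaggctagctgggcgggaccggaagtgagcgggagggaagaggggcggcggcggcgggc
Cdc20, chr4:118437344-118437493, minus strand: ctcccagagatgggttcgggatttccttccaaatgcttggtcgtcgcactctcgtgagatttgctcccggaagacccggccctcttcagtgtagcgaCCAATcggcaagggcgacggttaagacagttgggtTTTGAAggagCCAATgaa
Cenpa, chr5:30666736-30666885, plus strand: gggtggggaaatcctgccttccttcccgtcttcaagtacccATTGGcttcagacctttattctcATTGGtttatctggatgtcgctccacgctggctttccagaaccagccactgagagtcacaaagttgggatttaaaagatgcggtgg
Ccnb2, chr9:70421555-70421704, minus strand: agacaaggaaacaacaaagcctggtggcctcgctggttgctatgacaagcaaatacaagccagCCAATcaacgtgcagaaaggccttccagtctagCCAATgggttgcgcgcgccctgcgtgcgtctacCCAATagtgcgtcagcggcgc
Kif2c, chr4:117178773-117178922, minus strand: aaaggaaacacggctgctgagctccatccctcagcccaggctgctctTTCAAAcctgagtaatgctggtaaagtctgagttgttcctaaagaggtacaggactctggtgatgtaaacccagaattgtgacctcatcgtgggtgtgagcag

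Within the 150 bases shown, Ube2c, Cenpf, Cdc20 and Cenpa have 2 CCAAT boxes each and Ccnb2 has 3. Ube2c has 6 in its whole window, the others lying farther upstream, and Kif2c has none in its window. The CHR match nearest the start lies before it in Ube2c, Cdc20 and Kif2c, at distances of 29, 18 and 103 bases, and just after it in Cenpf, Cenpa and Ccnb2, at bases 3, 17 and 5. In the GENCODE annotation the Kif2c gene reaches farther upstream, to chr4:117182639. What is said of the Kif2c window therefore holds for the RefSeq start only. Ube2c and Cenpa also begin farther upstream in GENCODE, at chr2:164769898 and chr5:30666777. By those starts, the CHR match of Ube2c and the CCAAT boxes shown for Cenpa lie at or after the start. All distances and sides given here and below are counted from RefSeq starts, and other annotated starts would change some of them. The sites are set side by side below with up to 12 bases on either side, and capitals mark the CHR match. For contrast the last 3 lines give the nearest match of the 3 genes with a match whose log2 fold changes were the lowest of all.
Ube2c, chr2:164769888-164769917, plus strand: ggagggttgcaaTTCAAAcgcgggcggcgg
Cenpf, chr1:189688067-189688096, minus strand: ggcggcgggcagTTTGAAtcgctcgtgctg
Cdc20, chr4:118437344-118437373, minus strand: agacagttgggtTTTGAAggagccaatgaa
Cenpa, chr5:30666890-30666919, plus strand: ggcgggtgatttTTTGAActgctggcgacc
Ccnb2, chr9:70421533-70421562, minus strand: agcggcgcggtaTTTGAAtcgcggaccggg
Kif2c, chr4:117178858-117178887, minus strand: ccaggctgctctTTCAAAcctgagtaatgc
Ect2, chr3:27153829-27153851, minus strand: cgactggattttTTTGAAtcgga
Bub1b, chr2:118598239-118598260, plus strand: agagacgttaaaTTTGAAactt
Top2a, chr11:99024195-99024224, minus strand: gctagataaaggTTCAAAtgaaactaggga

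TTTGAA was present in the window of 29 of the 41 genes (70.7%), against 14.2% of the 9006 other tested genes with a window and 20.2% of all 27025 genes in the table. TTCGAA was present in 5 (12.2%), against 2.5% of the other tested genes. One form or the other was found in 32 genes, at a median distance of 21 bases for the match nearest the RefSeq start. That match lay within 50 bases of the start in 28 genes (19 after it and 9 before it) and farther before it in 4. The share depended on the window: in the 250 bases before the start alone, TTTGAA was present in 36.6% of the 41 genes, against 12.7% of the other tested genes and 18.3% of all genes in the table. CCAAT was present in 31 genes (75.6%, against 43.3% of the other tested genes), and both elements in 28 genes (68.3%, against 6.76%). The arrangement known from the human CDC25C promoter, with GCGG placed 4 bases before TTTGAA, was found in Cenpf and Cdk1 (4.88%, against 0.13%), and the E2F motifs TTTGGCGC or TTTCGCGC in 2 genes (4.88%, against 1.94%). These matches are letters in a window and not measured binding.

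**Figure D1:**
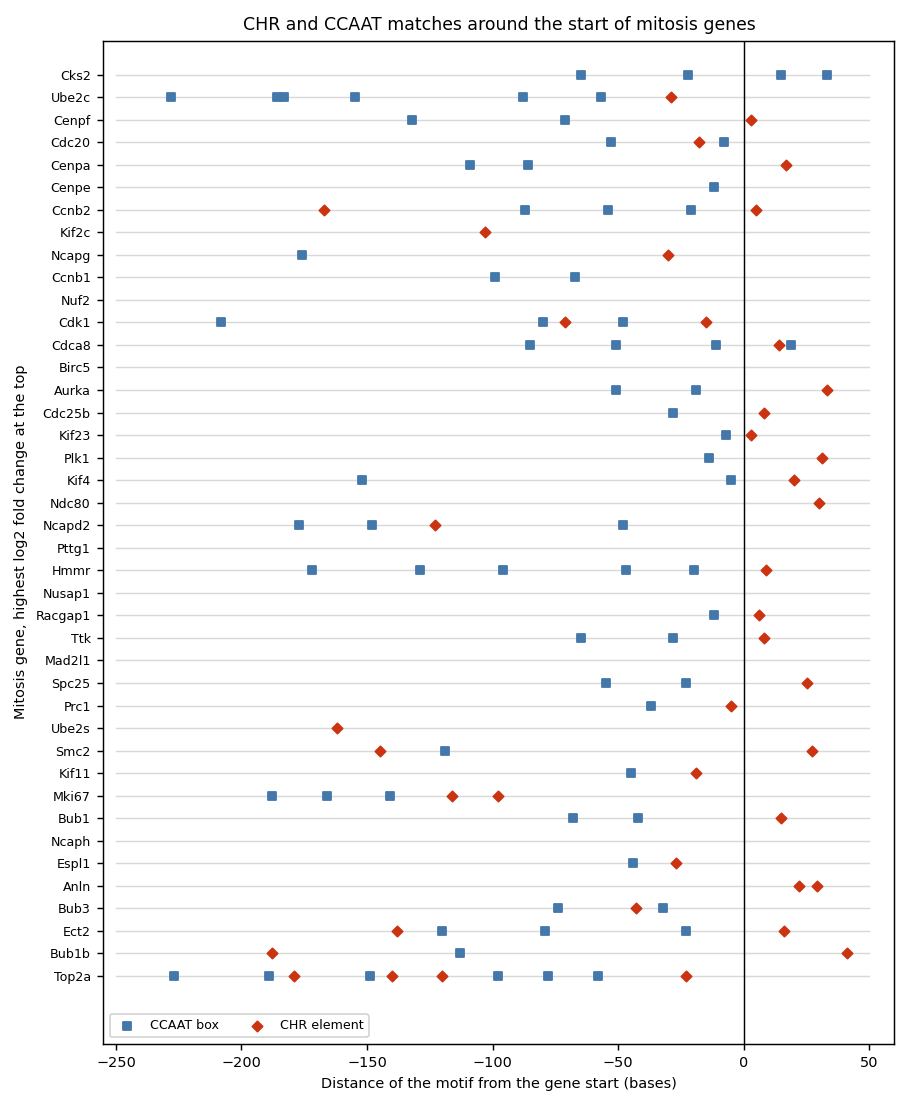
Positions of CHR (red diamonds) and CCAAT (blue squares) matches from 250 bases before to 50 bases after the start of the 41 genes with a window, ordered by log2 fold change with the highest at the top; the x axis is distance in bases, and 1 window is drawn where a gene has more than 1 start. CHR matches gather around the start at all heights of the plot, in Ube2c near the top as in Top2a at the bottom.

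The comparison asked whether the FTO inhibitor changed the level of mitotic transcripts in these leukaemic cells. Most of the module was higher in CS1. Of the 50 genes, 42 rose and 1, Top2a, fell at an adjusted p under 0.05 (limma on log2 of TPM + 1, Benjamini-Hochberg over all tested features), and 7 did not pass; among all tested features 35.3% were called higher and 31.6% lower, 67% in either direction. The median log2 fold change was 0.49, from -0.14 to 1.204, beside 0.04 over all tested features. In bulk RNA, a different number of cells in mitosis and a different amount of RNA per cell cannot be told apart.

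The summed level of the 50 genes was 2229 and 2264 TPM in PBS replicates 1 and 2, and 3194 and 3198 TPM in CS1 replicates 1 and 2. Both CS1 libraries were thus above both PBS libraries, by a ratio of group means of 1.42, or 0.226% and 0.230% of the library total against 0.327% in each CS1 library. Among single genes, both CS1 values lay above both PBS values for 47 of the 50, against 45.1% of all tested features; counting Top2a, 48 of the 50 had groups that did not overlap in 1 direction or the other, against 84.4%. By size, 24 genes had a log2 fold change of at least 0.5 and were called higher (16.3% of all tested features did so) and 5 had one of at least 1 (5.02%). Those 5 were Cks2, Cdc25c, Ube2c, Smc4 and Cenpf.

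**Figure D2:**
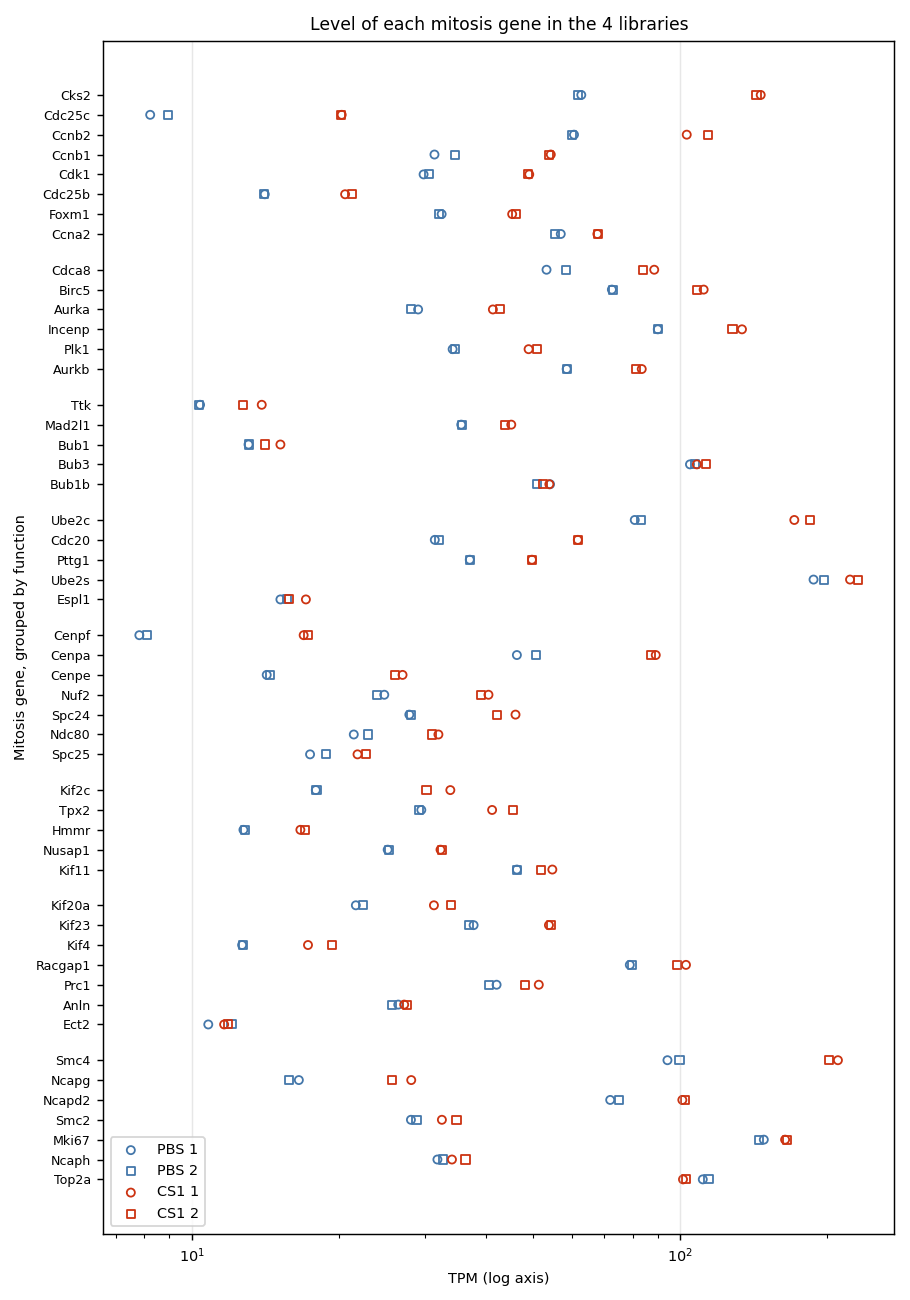
TPM of each mitosis gene in the 4 libraries on a log axis, with PBS in blue and CS1 in red, circles for replicate 1 and squares for replicate 2, grouped by function. The red symbols lie to the right of the blue ones for 47 of the 50 genes, overlap them for Bub1b and Ect2, and lie to the left for Top2a.

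The cyclins, their kinase and the regulators of mitotic entry showed the largest subgroup median together with the kinetochore genes (0.69 each), and all 8 rose. Cks2, a small subunit of cyclin-dependent kinases, was measured at 62.8 and 61.8 TPM in PBS and at 146 and 143 TPM in CS1, a 2.33-fold rise (log2 fold change 1.204 ± 0.03, SE, adjusted p = 3.52e-06). Cdc25c, the phosphatase that activates CDK1 at the onset of mitosis, stood at 8.22 and 8.94 TPM in PBS and 20.3 and 20.2 TPM in CS1 (1.15 ± 0.07, adjusted p = 5.56e-05). In both genes the CS1 libraries were at over 2 times the level of either PBS library.

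The B-type cyclins rose together with their kinase. Ccnb2 went from 60.7 and 60.1 to 103 and 114 TPM, and Ccnb1 from 31.4 and 34.6 to 54.4 and 53.9 TPM, with log2 fold changes of 0.84 and 0.70. Cdk1 itself, the kinase they activate, had a log2 fold change of 0.68 (29.8 and 30.6 TPM in PBS, 49.1 and 48.8 TPM in CS1). The proportion of the 2 cyclins overlapped between the groups: Ccnb2 was 1.93 and 1.74 times Ccnb1 in PBS and 1.899 and 2.12 times in CS1. Cks2 rose beyond Cdk1, from 2.10 and 2.02 times its level in PBS to 2.98 and 2.94 times in CS1.

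The smallest change in the subgroup was that of Ccna2, the cyclin that acts in S phase as well as at mitotic entry, with 57.0 and 55.6 TPM in PBS and 67.7 and 67.9 TPM in CS1 (0.26 ± 0.03, adjusted p = 0.000865). Exons of Ccna2 overlap those of Exosc9 on the other strand over 510 bases, and no source used here says whether strand was used in counting. Cdc25b, another CDK-activating phosphatase, and Foxm1, the transcription factor that drives late cell cycle genes, had log2 fold changes of 0.54 and 0.49.

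All 6 mitotic kinase and passenger complex genes rose, and their changes lay close together, between 0.48 and 0.62. Cdca8, which encodes borealin, was measured at 53.3 and 58.3 TPM in PBS and 88.5 and 84.1 TPM in CS1 (log2 fold change 0.62 ± 0.05, adjusted p = 0.000189). Birc5, which encodes survivin, another subunit of the chromosomal passenger complex, went from 72.5 and 72.9 to 112 and 108 TPM (0.59 ± 0.03, adjusted p = 2.94e-05). The smallest rise was that of Aurkb, the kinase of that complex, at 58.6 TPM in each PBS library and 83.5 and 81.2 TPM in CS1 (0.48 ± 0.03, adjusted p = 7.24e-05).

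Incenp, the scaffold of the same complex, had a log2 fold change of 0.53. The ratio of Aurkb to Incenp was 0.651 and 0.649 in PBS and 0.623 and 0.634 in CS1, a small difference beside that of either gene. Plk1, the polo-like kinase of centrosomes and kinetochores, and Aurka, the kinase of spindle poles, had log2 fold changes of 0.52 and 0.54. Aurka was 0.985 and 0.962 times its activator Tpx2 in PBS and 1.00 and 0.945 times in CS1, with overlapping ranges.

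Spindle assembly checkpoint genes had the lowest subgroup median, 0.15. Among these genes, whose products keep the APC inactive until all kinetochores are attached, 2 of 5 rose and 3 did not pass. That share called higher was near the 35.3% of all tested features. Ttk, the kinase at the head of the checkpoint, went from 10.4 TPM in each PBS library to 13.9 and 12.7 TPM in CS1 (log2 fold change 0.33 ± 0.08, adjusted p = 0.00997), and did not pass without CS1 replicate 1 (adjusted p = 0.0597, range over all alternatives 0.0050 to 0.0597). Mad2l1, the inhibitor of Cdc20, went from 35.6 and 35.7 to 45.1 and 43.8 TPM (0.31 ± 0.04, adjusted p = 0.000925).

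The BUB genes did not pass. Bub1, a kinase of the unattached kinetochore, stood at 13.1 TPM in each PBS library and at 15.2 and 14.1 TPM in CS1 (0.15 ± 0.07, adjusted p = 0.097). Bub3, its partner, stood at 105 and 107 TPM in PBS and 108 and 113 TPM in CS1 (0.06 ± 0.03, adjusted p = 0.159). For Bub1b, which encodes BUBR1 of the mitotic checkpoint complex, the groups overlapped, with 54.2 and 50.9 TPM in PBS and 54.0 and 52.4 TPM in CS1 (0.02 ± 0.04, adjusted p = 0.728). The scaling decided the sign for Bub3 and Bub1b, with log2 fold changes of -0.02 and -0.06 under TMM scaling (a trimmed mean of log ratios between libraries), and Bub3 passed as higher after quantile normalization (0.17, adjusted p = 0.00761, range over all alternatives 0.00761 to 0.698). After rescaling without the 100 most abundant features, Bub1 (0.21, adjusted p = 0.0333) and Bub3 (0.12, adjusted p = 0.0198) passed as higher.

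In the partners of the APC and the genes of sister chromatid separation, 4 of 5 rose and 1 did not pass. Ube2c, the ubiquitin-conjugating enzyme that starts ubiquitin chains on APC substrates, was measured at 80.8 and 83.3 TPM in PBS and at 171 and 184 TPM in CS1, a 2.17-fold rise (1.11 ± 0.04, adjusted p = 1.10e-05). Cdc20, the activator of the APC in mitosis, went from 31.5 and 32.2 to 61.8 TPM in each CS1 library (0.94 ± 0.04, adjusted p = 1.26e-05). Its exons share 53 bases with Elovl1 on the other strand, a gene with a log2 fold change of -0.55.

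Ube2s, which extends the chains that Ube2c begins, was the most abundant gene of the set, and it rose less: 188 and 197 TPM in PBS and 223 and 232 TPM in CS1, a log2 fold change of 0.24. Exons of Ube2s share 183 bases with the ribosomal protein gene Rpl28 on the other strand, whose group means were 2662 and 3817 TPM (log2 fold change 0.52), so the level of Ube2s and ratios to it are uncertain. Within each library Ube2c was 0.430 and 0.422 times Ube2s in PBS and 0.769 and 0.795 times in CS1. This ratio carries the uncertainty from Rpl28. The ratio of Cdc20 to Bub1b, an activator of the APC and a part of its inhibitor, was 0.581 and 0.632 in PBS and 1.14 and 1.18 in CS1. Ratios within a library do not depend on the scaling, and with 2 libraries against 2 they were not tested.

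Pttg1, which encodes securin, had a log2 fold change of 0.41 (37.1 TPM in each PBS library, 49.7 and 49.8 TPM in CS1). Espl1, which encodes separase, the protease that securin inhibits and that cuts cohesin, stood at 15.2 and 15.7 TPM in PBS and 17.1 and 15.8 TPM in CS1, which did not pass (0.09 ± 0.07, adjusted p = 0.279). Its sign changed after quantile normalization (-0.0086).

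Centromere and kinetochore genes rose in 7 of 7 cases. Cenpf, a large outer kinetochore protein of late G2 and mitosis, went from 7.81 and 8.10 TPM in PBS to 17.0 and 17.3 TPM in CS1 (log2 fold change 1.02 ± 0.07, adjusted p = 7.66e-05). Cenpa, the histone H3 variant that marks centromeres, was measured at 46.3 and 50.7 TPM in PBS and 89.2 and 87.1 TPM in CS1 (0.85 ± 0.05, adjusted p = 4.62e-05). Cenpe, the kinetochore kinesin, had a log2 fold change of 0.84 (14.2 and 14.5 TPM in PBS, 27.0 and 26.1 TPM in CS1). In all 3 genes the CS1 libraries were at over 1.5 times the level of either PBS library.

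The 4 subunits of the NDC80 complex, which binds microtubules at the outer kinetochore, rose unequally. The log2 fold changes were 0.69 for Nuf2, 0.63 for Spc24, 0.49 for Ndc80 and 0.28 for Spc25. Spc25 had 17.5 and 18.8 TPM in PBS and 21.9 and 22.8 TPM in CS1 (0.28 ± 0.06, adjusted p = 0.00856), and did not pass without CS1 replicate 2 (adjusted p = 0.0598, range over all alternatives 0.00412 to 0.0598). Spc24 and Spc25 pair with each other in the complex, and their ratio was 1.60 and 1.49 in PBS and 2.11 and 1.85 in CS1.

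All 5 spindle assembly genes rose. Kif2c, a kinesin that takes microtubule ends apart at centromeres, went from 17.95 and 18.01 TPM in PBS to 33.9 and 30.3 TPM in CS1 (log2 fold change 0.80 ± 0.07, adjusted p = 0.000176). Tpx2, the spindle factor that activates Aurora A, went from 29.5 and 29.2 to 41.2 and 45.4 TPM (0.54 ± 0.06, adjusted p = 0.000417). Kif11, the motor that pushes spindle poles apart, changed least, from 46.3 and 46.4 to 54.8 and 52.0 TPM (0.20 ± 0.04, adjusted p = 0.00631). Hmmr and Nusap1, microtubule-binding proteins of the spindle, had log2 fold changes of 0.37 and 0.35.

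Central spindle and cytokinesis genes followed, of which 5 of 7 rose and 2 did not pass. Kif20a and Kif23, kinesins of the central spindle, were measured at 21.7 and 22.4 and at 37.8 and 36.9 TPM in PBS. In CS1 they reached 31.3 and 34.0 and 53.9 and 54.4 TPM, log2 fold changes of 0.55 ± 0.06 (adjusted p = 0.000445) and 0.52 ± 0.04 (adjusted p = 9.21e-05). Kif20a shares 1271 bases of exon, 29.3% of its exon sequence, with Cdc23 on the other strand, so that its value is uncertain to that extent. Racgap1, the partner of Kif23 in the centralspindlin complex, rose less (0.34), and Kif4, a chromosome-bound kinesin, and Prc1, which bundles the microtubules of the central spindle, had log2 fold changes of 0.49 and 0.26 here. Kif4 shares 832 bases (15.1%) of exon with Pdzd11 on the other strand. Prc1 shares 911 bases (11.1%) with Rccd1 on the other strand, which had a log2 fold change of 1.23. Values of Kif4 and Prc1 are uncertain to that extent.

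The genes that did not pass here act at the cell cortex. Anln, the actin-binding anillin of the contractile ring, stood at 26.5 and 25.7 TPM in PBS and 27.2 and 27.6 TPM in CS1 (0.07 ± 0.05, adjusted p = 0.228). Ect2, the exchange factor that activates RhoA at the division plane, overlapped between the groups, with 10.8 and 12.1 TPM in PBS and 11.7 and 11.9 TPM in CS1 (0.04 ± 0.08, adjusted p = 0.681). Their signs depended on the scaling, with log2 fold changes of -0.0026 for Anln and -0.03 for Ect2 under TMM scaling and -0.08 for Ect2 after quantile normalization. Anln passed as higher after rescaling without the 100 most abundant features (0.13, adjusted p = 0.0466, range over all alternatives 0.0466 to 0.966).

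Condensin and chromosome structure genes ranged more widely than any other subgroup, from -0.14 to 1.08, with 5 of 7 higher and 1 lower. Smc4, one of the 2 ATPase subunits of condensin, was measured at 94.2 and 99.7 TPM in PBS and 211 and 202 TPM in CS1, a 2.13-fold rise (1.08 ± 0.04, adjusted p = 8.61e-06). Smc2, the other ATPase subunit, went from 28.1 and 28.9 to 32.5 and 34.9 TPM (0.23, adjusted p = 0.00901), and did not pass without PBS replicate 1 (adjusted p = 0.0525) or CS1 replicate 2 (0.0534, range over all alternatives 0.00386 to 0.0534). The 2 proteins form a dimer, and the ratio of their transcripts was 3.35 and 3.46 in PBS and 6.47 and 5.80 in CS1.

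The other subunits of condensin I differed likewise. Ncapg went from 16.6 and 15.8 to 28.2 and 25.7 TPM (0.70 ± 0.07, adjusted p = 0.000279), and Ncapd2 had a log2 fold change of 0.46. Ncaph, the kleisin that closes the ring, stood at 31.9 and 32.8 TPM in PBS and 34.1 and 36.4 TPM in CS1, which did not pass (0.12 ± 0.05, adjusted p = 0.0743). Ncaph passed as higher after rescaling without the 100 most abundant features (0.18, adjusted p = 0.02). Ncapg shares 944 bases of exon with Lcorl on the other strand, which had a log2 fold change of 0.80.

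Top2a, the topoisomerase that untangles sister chromatids, was the gene that fell, from 111 and 114 TPM in PBS to 101 and 103 TPM in CS1 (-0.14 ± 0.03, adjusted p = 0.00647). Both CS1 libraries were below both PBS libraries. The call did not hold after quantile normalization (-0.05, adjusted p = 0.169, range over all alternatives 0.00131 to 0.169) or after rescaling without the 100 most abundant features (-0.08, adjusted p = 0.0554). Mki67, which encodes the Ki-67 coat of mitotic chromosomes, went from 148 and 145 to 164 and 166 TPM, so that the ratio of Mki67 to Top2a was 1.33 and 1.27 in PBS and 1.62 and 1.61 in CS1.

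**Figure D3:**
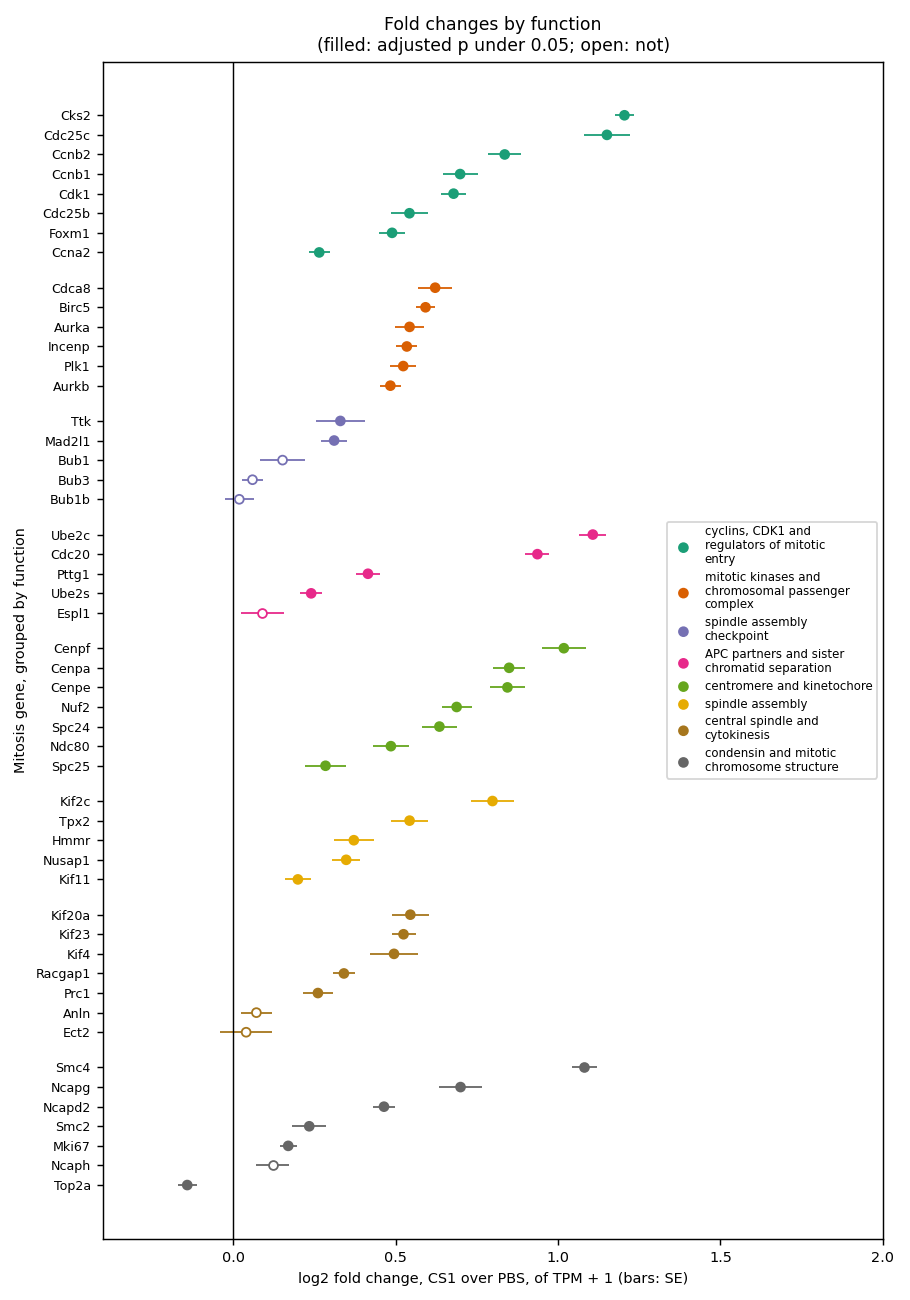
Log2 fold change of each gene (CS1 over PBS, of TPM + 1) with its SE, coloured by function, filled where the adjusted p was under 0.05 and open where it was not. Cks2 (1.204), Cdc25c (1.15), Ube2c (1.11), Smc4 (1.08) and Cenpf (1.02) lie farthest to the right, the BUB genes, Espl1, Anln, Ect2 and Ncaph are open, and Top2a alone lies left of 0.

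Other genes of mitosis and of the rest of the cell cycle were read from 11 lists that share no gene with the 50. The lists take in 26 tested genes of the G1/S transition and S phase and 6 tested inhibitors of cyclin-dependent kinases, which are not mitosis genes. Of all 198 tested genes in the lists, 86 were higher (43.4%, against 35.3% of all tested features) and 40 lower (20.2%, against 31.6%). Those shares of all tested features are the background for the counts of each list. The core subunits of the APC with its interphase activator Fzr1 and its inhibitor Fbxo5 gave 9 higher calls and 1 lower call among 16 (median 0.23). Anapc13 and Anapc4 had the largest log2 fold changes, 0.54 and 0.41, and Anapc1, the large scaffold subunit, had one of -0.22. Levels of Anapc13 went from 108 to 158 TPM (group means).

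Further kinetochore genes gave 16 higher and 2 lower calls among 29 (median 0.32). Ska1, of the complex that holds kinetochores on microtubule ends, and Cenpw, of the inner kinetochore, had log2 fold changes of 0.82 and 0.81, and Cenpo and Mis12 had -0.56 and -0.39; exons of Cenpo and of Mis12 overlap neighbouring genes. Of 8 further checkpoint genes, 3 were called higher and 1 lower (median 0.12). Here too the share called higher was near the 35.3% of all tested features. Zwilch and Zw10, subunits of the RZZ complex, had 0.48 and 0.34, and Tpr, a nuclear pore protein, had -0.12.

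Of 32 further kinesins and spindle proteins, 24 were called higher and 4 lower (median 0.44). Haus7, a subunit of the augmin complex that branches spindle microtubules, and Arhgef39 had the largest log2 fold changes, 1.11 and 1.04, while Haus8, of the same complex, and Numa1, the spindle pole organiser, had -0.75 and -0.37. Of the 8 augmin genes 5 were higher, 1 was lower and 2 did not pass. Centrosome genes gave 7 higher and 2 lower calls among 16 (median 0.095), with Nek2 and Cep152 at 0.60 and 0.55 and Cep135 and Tubgcp3 at -0.26 and -0.25.

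Condensin II and cohesin genes gave 2 higher and 7 lower calls among 16 (median -0.07). Ncaph2, of condensin II, and Smc3, of cohesin, had log2 fold changes of 0.35 and 0.19. Smc1a, the partner of Smc3 in cohesin, went from 120 to 89.4 TPM (group means, -0.42), and Pds5a, a regulator of cohesin release, had -0.35. Regulators of mitotic entry and exit outside the set gave 7 higher and 4 lower calls among 16 (median 0.12), with Pkmyt1, an inhibitory kinase of CDK1, and Mastl, the Greatwall kinase, at 0.55 and 0.49. Pbk, a mitotic kinase, and Ppp2ca, the catalytic subunit of the phosphatase that Greatwall restrains, had -0.35 and -0.29.

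Transcription factors of the DREAM, MuvB and E2F families, with the NF-Y subunits, gave 7 higher and 9 lower calls among 22 (median 0.04). Mybl2, the MYB protein that turns MuvB into an activator of late cell cycle genes, had a log2 fold change of 0.59 (25.2 to 38.5 TPM, group means), and Lin52, a MuvB subunit, one of 0.58. Nfya, the NF-Y subunit that recognises CCAAT, went from 59.0 to 38.2 TPM (-0.61), and E2f6, a repressor, had -0.60.

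Among 26 genes of the G1/S transition and S phase, 2 were higher and 9 lower (median -0.0027). The share called lower was near the 31.6% of all tested features, and the share called higher was below their 35.3%. Tk1 and Gins2 had log2 fold changes of 0.63 and 0.21, and Gins2 shares 67.3% of its exon sequence with Gse1 on the other strand. Mcm4 and Mcm6 had -0.57 and -0.50; of the helicase genes Mcm2 to Mcm7, singled out after their values were seen, 6 of 6 were lower. The summed TPM of the 50 mitosis genes was 1.44 and 1.45 times that of the 26 G1/S and S phase genes in the PBS libraries and 2.20 and 2.23 times in the CS1 libraries, a ratio that no scaling of a whole library can change.

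**Figure D4:**
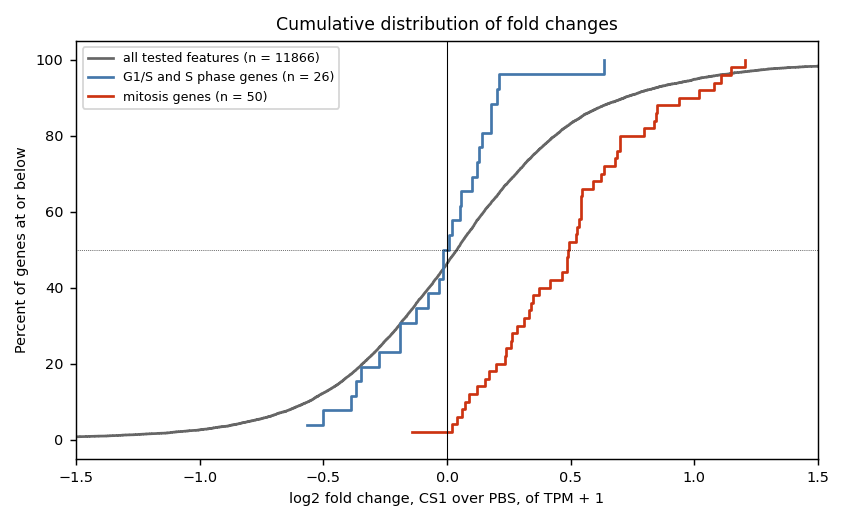
Cumulative percentage of genes (y axis) at or below each log2 fold change of TPM + 1 (x axis) for the 50 mitosis genes, the 26 G1/S and S phase genes and all 11866 tested features. The mitosis curve crosses the 50% line at 0.49, to the right of all tested features (0.04) and of the G1/S and S phase genes.

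**Figure D5:**
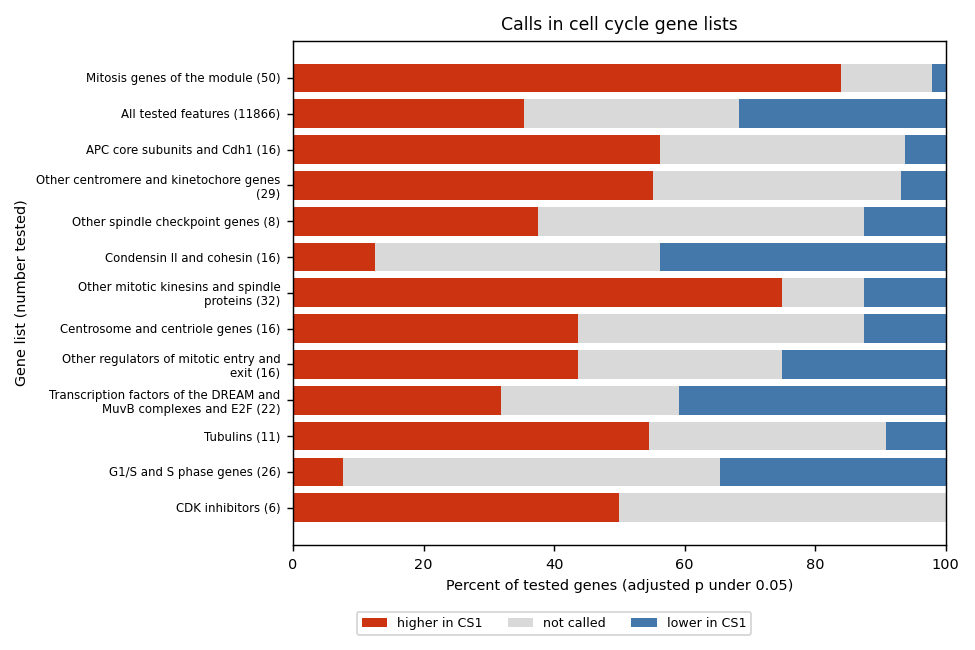
Percentage of tested genes called higher (red), not called (grey) or lower (blue) in CS1 at an adjusted p under 0.05, for the 50 mitosis genes, all tested features and the 11 lists, with the number tested in brackets. The red bar is longest for the mitosis genes and shortest for the G1/S and S phase genes.

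Markers of cell types and stages also moved between the groups, and their part in the result was not tested. Beside each count of markers called stand the shares of all tested features, 35.3% higher and 31.6% lower. The myeloid leukaemia and progenitor markers, all 16 of them measured, were higher in 11 cases and lower in 5, with a summed level of 5213 to 5224 TPM in PBS and 8676 to 8719 TPM in CS1. Within that list the granule protein genes of early granulocyte precursors rose, with Elane going from 425 to 2512 TPM, Prtn3 from 498 to 1211 TPM and Mpo from 161 to 813 TPM (group means). Kit went from 4.79 to 17.4 TPM, Flt3 from 188 to 377 TPM and Hoxa9 from 67.8 to 159 TPM. Hoxa10, Meis1, Cd33, Ctsg and Ms4a3 were called higher too. The 5 that fell were Itgam (982 to 507 TPM), Ptprc (590 to 319 TPM), Spi1 (849 to 707 TPM), Csf1r (510 to 305 TPM) and Csf3r (156 to 85.3 TPM). Mature neutrophil and monocyte markers were higher in 5 and lower in 7 of 13 tested, and summed to 4542 to 4581 and 7608 to 7626 TPM. The rise of that sum was carried by the granule genes Ngp (736 to 3347 TPM) and Camp (309 to 1676 TPM), while the monocyte and macrophage markers Ccr2 (417 to 148 TPM), Cx3cr1 (229 to 106 TPM) and Adgre1 (164 to 97.2 TPM) fell, as did Mmp8 (614 to 296 TPM). B cell markers summed to 71.5 to 73.7 TPM in PBS and 50.4 to 52.4 TPM in CS1 (1 higher and 5 lower of 8 tested), germinal centre and plasma cell markers to 424 to 429 and 287 to 294 TPM (1 and 5 of 6; mostly Xbp1 and Bcl6, which other cells express too, with Jchain, Mzb1 and S1pr2 under 10 TPM), and T cell markers to 37.6 to 41.1 and 30.4 to 31.1 TPM (1 and 4 of 7). Erythroid precursors divide too, and their 15 measured markers (2 higher and 0 lower of 4 tested) summed to 32.0 to 33.2 TPM in PBS and 55.0 to 63.2 TPM in CS1, most of it from globin genes and Tfrc, while Gata1 was at 0.08 TPM or less in every library. NK cell markers (2 higher and 1 lower of 3 tested) summed to 20.5 to 22.1 and 48.6 to 56.6 TPM, mostly Nkg7 and Klrd1, which rose. Gzma was called lower (1.615 to 0.68 TPM, group means). Ncr1, Klrb1c, Gzmb, Prf1 and Eomes were too low to be tested, with Ncr1 at 0.44 TPM or less. Each of them was lower in both CS1 libraries than in either PBS library. Megakaryocyte markers summed to 8.82 to 9.57 and 12.8 to 15.3 TPM, with Pf4, Ppbp and Gp6 listed at the lowest value of 0.01 in all libraries. Stroma and endothelium markers summed to 46.3 to 47.9 and 38.6 to 41.1 TPM, nearly all Pecam1, with Dcn at 0.01 throughout.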

How the data were processed

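Poly(A) RNA was sequenced in 2 PBS and 2 CS1 libraries. The values were taken as TPM made by the authors: the header names no unit, and decimals, nearly equal library totals and RSEM in the submitters' processing notes point to it. Those notes name STAR, RSEM and mm10, without versions; no source used here gives their roles, the annotation or the strandedness. The lowest listed value, 0.01, stands where 0 would be expected. TPM keeps no read depth, so no counting interval is given, and whether replicates differ by more than sampling noise could not be tested.

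Values were transformed to log2(TPM + 1), features reaching 1 TPM in 2 or more libraries were kept, and the groups were compared by limma 3.58.1 under R 4.3.3, two-sided and with a variance trend; p-values were adjusted by Benjamini-Hochberg over the 11866 features tested. Fold changes are on that scale, which understates changes of low genes. An exact permutation test of 2 libraries against 2 cannot go below p = 0.333. The procedure was tested on simulated data. Within each subgroup the 2 highest and the lowest fold changes, and every gene that was lower or did not pass, are given by library; from each other list, up to 2 called genes at either end with a group mean of at least 5 TPM. The 50 genes, the lists and the tests were chosen with earlier results of these data known. Positions and exon overlaps are from GENCODE M21 (GRCm38, the assembly of mm10). Exons of 10 of the 50 genes overlap another tested feature on the other strand. Sequences are from RefSeq, GRCm38.p6; genes with pseudogenes or close copies may share reads. Alternatives covered the pseudocount, the filter, the scaling, the variance model, the replicate block, each library left out, and the promoter window.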

Additional observations from a re-analysis of the deposited data

How the results depend on the processing

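Of the 50 genes, 39 kept their direction and call in all 14 alternatives, each of them called higher. The number called higher ranged from 40 to 46. No gene was called lower (0) after quantile normalization or after rescaling without the 100 most abundant features. The median log2 fold change was 0.51 with a pseudocount of 0.1, 0.44 with 5, 0.42 after TMM, 0.51 after quantile normalization and 0.55 without the 100 most abundant features. The ratio of summed levels was 1.35 after TMM and 1.49 without those features. Signs turned for genes that had not passed: after TMM for Bub1b (-0.057), Bub3 (-0.017), Anln (-0.0026) and Ect2 (-0.031), after quantile normalization for Espl1 (-0.0086) and Ect2 (-0.077), and on leaving out a library for Ect2 (-0.033 without PBS replicate 1, range up to 0.112) and Bub1b (-0.025 without PBS replicate 2, -0.0023 without CS1 replicate 1, range up to 0.0624). The cause was not tested. In the 250 bases before the start alone, TTTGAA was in 36.6% of the genes, against 12.7% of the other tested genes. The replicate block gave 42 higher and 1 lower, as did the fit without it. Deviations of same-numbered libraries correlated at 0.02. That showed no effect shared by number, but it cannot tell whether the libraries were prepared in pairs. Read depth, which limits low genes such as Cenpf and Ect2, is unknown.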

Other observations

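Genes that set the supply of spindle microtubules and the brakes on the cell cycle were not uniform. Of 11 tested tubulin genes 6 were higher and 1 lower: Tuba8 went from 2.40 to 10.6 TPM and Tubb4b from 206 to 361 TPM (group means), and Tuba1a from 92.4 to 68.7 TPM. The abundant Tuba1b and Tubb5 had log2 fold changes of -0.02 and 0.03 and did not pass. Tubulin genes are near copies of each other and reads may be split among them, which makes single values uncertain. Among 6 tested inhibitors of cyclin-dependent kinases 3 were higher and 0 lower, with Cdkn1c going from 0.235 to 6.63 TPM and Cdkn2c from 139 to 218 TPM; Cdkn1a, the p53 target, stood at 75.4 and 76.3 TPM and did not pass.

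CCAAT boxes on 1 strand whose starts lie 31 to 33 bases apart were found in 7 of 41 promoter windows by gene (17.1%), against 1.77% of the other tested genes; the spacing was chosen after the positions were seen. The 7 genes were Aurka, Ccnb1, Ccnb2, Cdk1, Hmmr, Spc25 and Ube2c, with log2 fold changes from 0.28 to 1.11. Fold changes with and without a CHR match were set side by side, untested. The 32 genes with a match had a median log2 fold change of 0.42 (-0.14 to 1.11, 25 of them called higher), and the 9 genes with a window and no match one of 0.59 (0.12 to 1.204, 8 called higher).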
